A study of Mus musculus with 12 samples.

Results

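The class 4 semaphorins and their plexin-B receptors were described in mouse cortex as 9 genes: the ligands Sema4a, Sema4b, Sema4c, Sema4d, Sema4f and Sema4g, and the receptors Plxnb1, Plxnb2 and Plxnb3. They were taken by symbol from a table of 23354 gene symbols, and each had a single row. All 9 passed the filter on low values. Cortices were dissected at postnatal day 16 from 12 mice on a C57BL/6 background, 3 in each of 4 groups, and polyA RNA was sequenced. Dnmt1 conditional knockout (CKO) mice were Olig1cre/+;Dnmt1flox/flox and their littermate controls Olig1+/+;Dnmt1flox/flox. Dnmt3a CKO mice were Olig1cre/+;Dnmt3aflox/flox and their littermate controls Olig1+/+;Dnmt3aflox/flox. Controls thus carried the floxed alleles without cre, and a CKO mouse had 1 Olig1 allele that carried cre, so loss of the target gene and of that Olig1 allele cannot be told apart within a line. Per the study, recombination covered the larger share of oligodendrocytes, and the whole cortex was sampled, in which other cells keep the floxed genes. Dnmt1 is the maintenance DNA methyltransferase and Dnmt3a a de novo one, and the study asked whether their loss in the oligodendrocyte lineage, where Olig1 drives cre, alters the expression of oligodendrocyte genes. Values are FPKM, fragments scaled to transcript length and to the number of mapped fragments, so that levels of different genes can be set side by side.

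Class 4 semaphorins are membrane proteins that signal between neighbouring cells and can be cut from the surface. Plexin-B receptors bind them with an extracellular sema domain, and inside the cell they activate RhoA through the guanine nucleotide exchange factors PDZ-RhoGEF and LARG and act as GTPase-activating proteins on Ras family members. In the brain the system is known for growth cone collapse, cell migration and synapse formation, and both Sema4d and Plxnb3 are known to be expressed by oligodendrocytes. The cortex holds many cell types, and in these bulk libraries fewer cells of a type cannot be told apart from less RNA per cell.

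The libraries were of similar depth, from 0.856 to 1 relative to the deepest, as estimated from the steps between low values; the read numbers behind the values are unknown. Dnmt1 was at 9.78 to 10.6 FPKM in Dnmt1 controls and at 7.26 to 9.11 FPKM in Dnmt1 CKO mice. The log2 fold change was −0.27 for Dnmt1 in its line (limma adjusted p = 0.29) and −0.78 for Dnmt3a in its line (limma adjusted p = 0.66). Neither targeted gene thus passed 10% FDR. For Olig1 it was −1.19 in the Dnmt1 line (limma adjusted p = 0.0043) and −0.49 in the Dnmt3a line (limma adjusted p = 0.66). These Olig1 effects differed by −0.70 (limma adjusted p = 0.032). Dnmt3a was at 13.6 to 15.4 FPKM in Dnmt3a CKO mice and at 31.1, 16.9 and 28.7 FPKM in Dnmt3a controls 1, 2 and 3, so the library labelled Dnmt3a control replicate 2 stood near the CKO level, and results of that line are also given without it. Replicate 3 of the Dnmt1 controls, of the Dnmt3a controls and of the Dnmt3a CKO mice had Ddx3y (Y chromosome) under 1 FPKM and Xist at 46.2 to 49.4 FPKM. The 3 Dnmt1 CKO libraries had Ddx3y at 10.2 to 11.1 FPKM and Xist at 1.69 to 1.85 FPKM. As Plxnb3 lies on the X chromosome, its results are given with and without the 3 libraries low in Ddx3y.

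Sema4d had the highest level of the family in control cortex. Over the 6 control mice of both lines it ranged from 15.9 to 19.3 FPKM with a mean of 17.4 ± 1.19 FPKM (SD, n = 6), above every value of the other 8 genes. Sema4a, Sema4f and Plxnb1 followed at means of 11.95, 11.8 and 10.3 FPKM, and the ranges of neighbours in this order overlapped. Plxnb2 and Sema4g came next at 8.31 and 8.30 FPKM with overlapping ranges, below the range of Plxnb1. Plxnb3 at 4.49 FPKM and Sema4c at 3.73 FPKM overlapped too, and Sema4b was lowest at 3.01 FPKM. In the Dnmt1 CKO mice Sema4d was still first, but Plxnb3 moved from rank 7 to rank 9, below Sema4b.

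**Figure D1:**
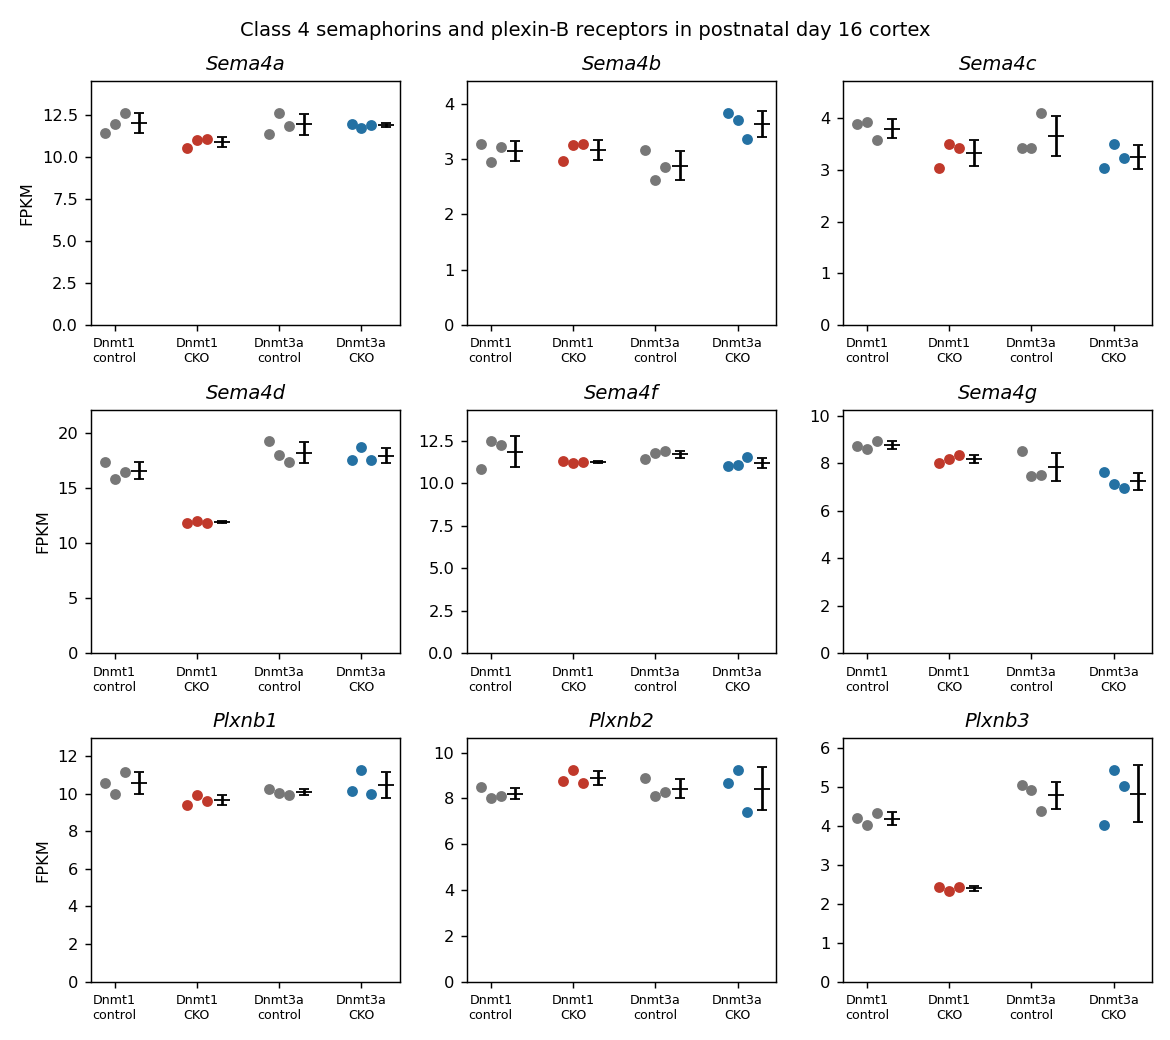
FPKM (y axis, from 0, own scale for each gene) of the 9 genes in each of the 12 mice (points), with the mean and SD of each group of 3 (black bars). Sema4d and Plxnb3 lie lower in the 3 Dnmt1 CKO mice (red) than in all 9 other mice.

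The ligand that changed in the Dnmt1 line was Sema4d, which binds plexin-B1 and, on immune cells, CD72. Sema4d (ENSMUSG00000021451, chromosome 13 from 51685529 to 51793747 on the minus strand of GRCm38, 16 exons in its longest transcript) was at 17.4, 15.9 and 16.5 FPKM in the Dnmt1 controls and at 11.9, 12.1 and 11.85 FPKM in the Dnmt1 CKO mice. The CKO values lay within 0.3 FPKM of each other and well below the lowest control. The mean of 11.9 ± 0.119 FPKM was 71.9% of the control mean of 16.6 ± 0.774 FPKM (SD, n = 3 each), a log2 fold change of −0.47 (standard error 0.041, 95% interval −0.57 to −0.37, limma adjusted p = 0.0053). All log2 fold changes are of FPKM + 0.1, from limma's moderated test on the 14115 rows that averaged 0.5 FPKM or more, at 10% FDR.

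The other 5 ligands did not pass the threshold. Sema4a, which also binds plexin-D1 and acts on immune and retinal cells, was at 11.4, 11.9 and 12.6 FPKM in Dnmt1 controls and at 10.53 to 11.03 FPKM in the 3 CKO mice. This is a log2 fold change of −0.14 (95% interval −0.26 to −0.03, limma adjusted p = 0.25). Its groups did not overlap. Sema4c, a ligand of plexin-B2, was at 3.89, 3.92 and 3.58 FPKM in controls and 3.03, 3.50 and 3.43 FPKM in their CKO littermates, a log2 fold change of −0.19 (95% interval −0.38 to 0.002, limma adjusted p = 0.34). Sema4g, which acts with Sema4c through plexin-B2 in the cerebellum, was at 8.76, 8.61 and 8.94 FPKM in controls and 8.04, 8.19 and 8.38 FPKM in CKO cortex, a log2 fold change of −0.10 (95% interval −0.19 to −0.005, limma adjusted p = 0.31). These groups too were separate, with differences far smaller than that of Sema4d. Sema4f, a synaptic semaphorin that binds PSD-95, was at 10.8, 12.5 and 12.3 FPKM in controls and 11.3, 11.2 and 11.2 FPKM in CKO mice, so that the groups overlapped (log2 fold change −0.07, 95% interval −0.22 to 0.07). Sema4b, which binds PSD-95 as well, overlapped too, at 3.27, 2.94 and 3.22 FPKM in controls and 2.96, 3.27 and 3.27 FPKM in CKO mice (log2 fold change 0.01, 95% interval −0.17 to 0.19). Without strand in the library kit, the 7.27% of Sema4c exonic bases that lie in D430040D24Rik on the opposite strand cannot be assigned to either gene.

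The receptor that changed was Plxnb3, which is also a receptor of Sema5a. Plxnb3 (ENSMUSG00000031385, chromosome X from 73757090 to 73772514 on the plus strand, 33 exons) was at 4.21, 4.03 and 4.35 FPKM in the Dnmt1 controls and at 2.43, 2.33 and 2.45 FPKM in the Dnmt1 CKO mice. No CKO value came near a control value. The mean of 2.40 ± 0.063 FPKM was 57.3% of the control mean of 4.20 ± 0.159 FPKM (SD, n = 3 each), a log2 fold change of −0.78 (standard error 0.058, 95% interval −0.92 to −0.64, limma adjusted p = 0.0037). Without Dnmt1 control replicate 3, the 1 library of this comparison low in Ddx3y, it was −0.75 (limma adjusted p = 0.022).

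Plxnb1 and Plxnb2 differed by much less and in opposite directions. Plxnb1, the receptor of Sema4d, had 10.5, 9.96 and 11.2 FPKM in controls and 9.42, 9.95 and 9.62 FPKM in CKO cortex, a log2 fold change of −0.12 (95% interval −0.25 to 0.002, limma adjusted p = 0.34). Its highest CKO value lay just below its lowest control value. Plxnb2, known from neural tube closure and from migrating neuronal precursors, had 8.48, 8.03 and 8.10 FPKM in controls and 8.76, 9.25 and 8.68 FPKM in CKO cortex, a log2 fold change of 0.12 (95% interval 0.01 to 0.22, limma adjusted p = 0.31). It was the only member with all CKO values above all control values.

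In total, 2 of 9 members passed the threshold in the Dnmt1 line, both lower, where 3.15% of all rows passed and 2.3% were lower. The values of the groups were separate for 7 of 9 members, against 20.8% of all rows. CKO values were the lower ones in 6 of the 7, where 14.4% of all rows were separate and lower and 6.38% separate and higher. An unadjusted limma p under 0.05 was found for 5 of 9 members and for 15% of all rows. The median log2 fold change of the 9 was −0.12, beside −0.02 over all rows tested. Taken alone, a gene with 3 CKO and 3 control mice could reach a p of 0.1 at best in an exact permutation test.

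**Figure D2:**
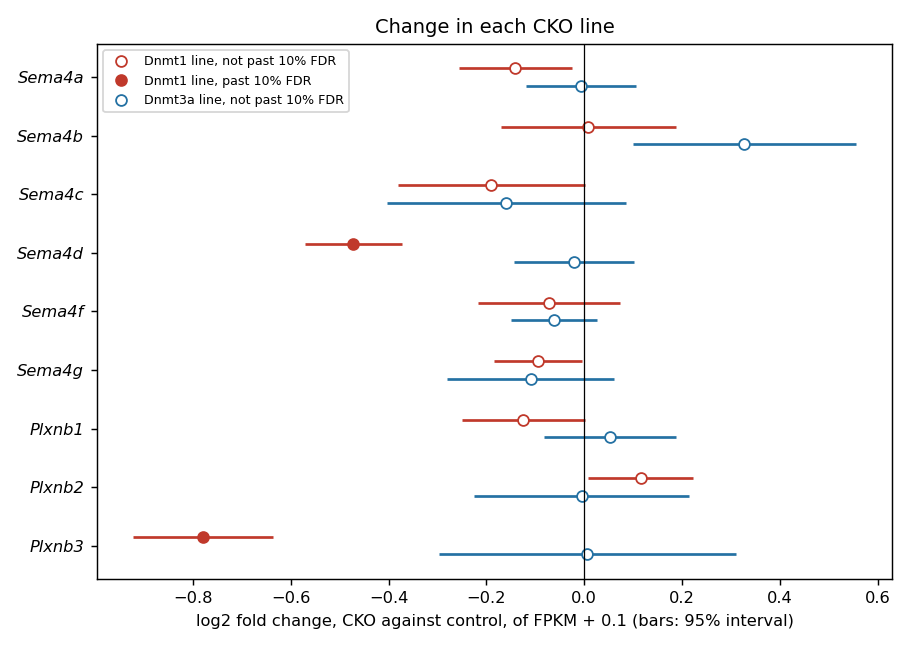
Log2 fold change of FPKM + 0.1 (x axis) of each gene in CKO against control mice of the Dnmt1 line (red) and the Dnmt3a line (blue), with 95% intervals from limma; filled points are past 10% FDR. Sema4d at −0.47 and Plxnb3 at −0.78 in the Dnmt1 line are the filled points.

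Sums over the ligands and over the receptors were lower in the Dnmt1 CKO mice. They contain Sema4d and Plxnb3, so they are no separate evidence of a fall across the family. The 6 ligands summed to 55.6, 55.8 and 57.1 FPKM in Dnmt1 controls and to 47.8, 49.3 and 49.2 FPKM in Dnmt1 CKO mice. Sema4d made up 31.4%, 28.5% and 28.9% of the ligand sum in controls and 24.9%, 24.5% and 24.1% in CKO mice. The 3 receptors summed to 23.2, 22.0 and 23.6 FPKM in controls and to 20.6, 21.5 and 20.75 FPKM in CKO mice. Plxnb3 made up 18.1%, 18.3% and 18.4% of that sum in controls and 11.8%, 10.8% and 11.8% in CKO mice, so the CKO cortex had lower shares of Sema4d among ligands and of Plxnb3 among receptors. In the Dnmt3a CKO mice Sema4d was 31.95% to 33.6% of the ligands and Plxnb3 17.7% to 22.4% of the receptors, ranges that overlapped with those of their controls, 31.3% to 33.7% and 19.4% to 21.4%.

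CG dinucleotides were sparse before the start sites read for Sema4d and Plxnb3. The same held at some start sites of Sema4a, which did not pass the threshold. CG dinucleotides are the main substrate of both methyltransferases, so the 250 bases before each RefSeq start site were read (GRCm38.p6, 17 windows, at least 1 for each of the 9 genes) and CG was counted, with its number over that expected from the C and G content. Short words of 6 bases were looked for on both strands: ACAAAG and AACAAT, which resemble SOX sites, and CAGCTG, an E-box. The windows below are the 3 of Sema4d and the 1 of Plxnb3, the genes that changed, and for a receptor that did not pass the threshold that of Plxnb2 at its outermost start; capitals mark CG and the 3 words (AACAAT may stand as its reverse complement), and each is written 5′ to 3′ on the strand of its gene.
Sema4d, chr13:51739447-51739696, minus strand: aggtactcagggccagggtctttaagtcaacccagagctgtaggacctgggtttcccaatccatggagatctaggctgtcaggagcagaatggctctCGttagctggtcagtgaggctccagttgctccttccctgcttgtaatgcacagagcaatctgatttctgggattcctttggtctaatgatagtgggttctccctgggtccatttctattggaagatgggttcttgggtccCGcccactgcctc
Sema4d, chr13:51748811-51749060, minus strand: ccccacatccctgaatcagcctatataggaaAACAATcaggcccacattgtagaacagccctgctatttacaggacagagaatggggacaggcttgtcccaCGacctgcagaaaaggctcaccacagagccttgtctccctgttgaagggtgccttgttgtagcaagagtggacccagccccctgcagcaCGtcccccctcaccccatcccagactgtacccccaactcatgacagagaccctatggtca
Sema4d, chr13:51756684-51756933, minus strand: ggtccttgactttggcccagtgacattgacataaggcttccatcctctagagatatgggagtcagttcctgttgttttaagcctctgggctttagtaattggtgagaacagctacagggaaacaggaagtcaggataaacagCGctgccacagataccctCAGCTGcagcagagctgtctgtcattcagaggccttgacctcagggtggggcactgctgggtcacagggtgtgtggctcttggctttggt
Plxnb3, chrX:73756853-73757102, plus strand: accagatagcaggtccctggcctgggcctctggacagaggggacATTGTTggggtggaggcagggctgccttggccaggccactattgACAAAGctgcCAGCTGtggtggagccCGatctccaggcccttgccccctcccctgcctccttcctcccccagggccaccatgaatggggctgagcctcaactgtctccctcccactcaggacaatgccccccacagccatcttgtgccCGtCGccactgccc
Plxnb2, chr15:89180789-89181038, minus strand: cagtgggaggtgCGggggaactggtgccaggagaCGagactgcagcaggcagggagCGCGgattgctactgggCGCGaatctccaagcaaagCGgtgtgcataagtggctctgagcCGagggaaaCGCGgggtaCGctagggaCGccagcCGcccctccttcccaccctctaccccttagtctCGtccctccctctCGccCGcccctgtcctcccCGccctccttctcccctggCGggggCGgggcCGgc

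The Sema4d windows held 2, 2 and 1 CG, the Plxnb3 window 3 and the Plxnb2 window shown 20. The observed over expected ratio of CG was 0.117, 0.111 and 0.0603 in the Sema4d windows, 0.116 in the Plxnb3 window, and 0.669 in the Plxnb2 window shown and 0.518 in its other window, beside a median of 0.374 over 32851 windows of all genes. Plxnb1 at 0.859, Sema4g at 0.730, Sema4b at 0.815 and 0.702 and Sema4c at 0.762 and 0.611 were all above that median. Low ratios were not particular to the genes that changed: Sema4a had windows at 0.0901 and 0.145, beside 0.302 and 0.573, and Sema4f was at 0.311. The 3 Sema4d start sites lie 37064 to 54301 bases inside the gene as annotated by GENCODE, and the bases before its outermost start were not analysed here. The Plxnb2 window shown is at its outermost start, so Sema4d and Plxnb2 are not compared at like sites. The Plxnb3 window held each of the 3 words once, the second Sema4d window held AACAAT once, the third held CAGCTG once, and the first and the Plxnb2 windows held none. Of all windows, 16.5% held ACAAAG, 9.42% AACAAT and 13.0% CAGCTG, and of the 17 windows of the family 2, 2 and 3. DNA methylation itself was not measured in these data.

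**Figure D3:**
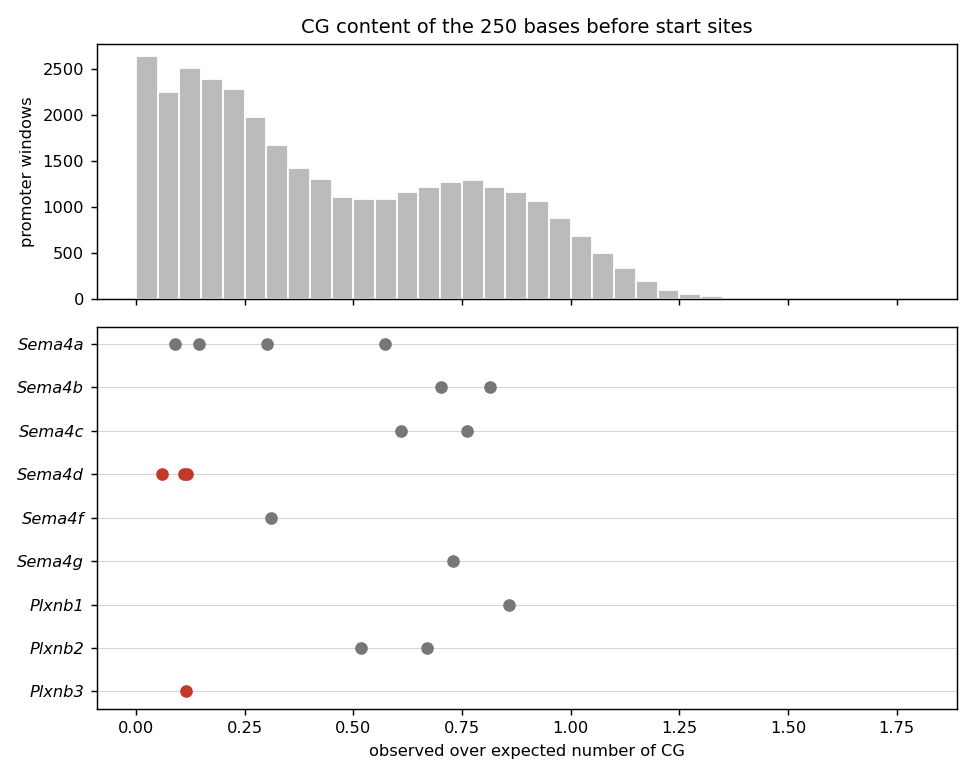
Observed over expected number of CG (x axis) in the 250 bases before RefSeq start sites: number of windows of all genes (top, histogram of 32851 windows) and the 17 windows of the 9 genes (bottom, 1 point a window, red for the genes past 10% FDR in the Dnmt1 line). The red points of Sema4d and Plxnb3 lie between 0.0603 and 0.117, and 2 of the 4 windows of Sema4a lie there or close by.

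In the Dnmt3a line no member passed the threshold, where 0.0142% of all rows did (2 rows). At an unadjusted limma p under 0.05 there was 1 member, Sema4b, where 7.35% of all rows were below this value. Sema4d was at 19.3, 18.1 and 17.4 FPKM in Dnmt3a controls and at 17.6, 18.8 and 17.6 FPKM in Dnmt3a CKO mice, overlapping groups with a log2 fold change of −0.02 (standard error 0.050, 95% interval −0.14 to 0.10, limma adjusted p = 0.94). Plxnb3 was at 5.05, 4.93 and 4.40 FPKM in controls and at 4.04, 5.45 and 5.03 FPKM in CKO mice, the widest spread of any group for this gene, with a log2 fold change of 0.01 (standard error 0.124, 95% interval −0.30 to 0.31, limma adjusted p = 0.996). The interval of Plxnb3 therefore covers decreases of up to 0.30 on the log2 scale, short of the −0.78 of the Dnmt1 line. Without the library labelled Dnmt3a control replicate 2 the log2 fold changes were −0.03 for Sema4d and 0.03 for Plxnb3, and without the libraries low in Ddx3y that of Plxnb3 was −0.09 (limma adjusted p = 0.88).

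Sema4b was the member with the largest difference in the Dnmt3a line. Its control values were 3.16, 2.62 and 2.86 FPKM and its CKO values 3.84, 3.70 and 3.37 FPKM. The groups were separate, as in 12.8% of all rows (7.33% with the CKO values higher), and the CKO mean was 126% of the control mean, a log2 fold change of 0.33 (standard error 0.093, 95% interval 0.10 to 0.56, unadjusted p = 0.013, limma adjusted p = 0.66). Without the library labelled Dnmt3a control replicate 2, the lowest of the 12, it was 0.26 (limma adjusted p = 0.72). The other members had overlapping groups there, with log2 fold changes from −0.16 for Sema4c to 0.05 for Plxnb1 and a median over the 9 of −0.01, beside 0.01 over all rows. Sema4a ranged from 11.3 to 12.6 FPKM in the controls and from 11.72 to 11.96 FPKM in the CKO mice, Sema4f from 11.46 to 11.89 and from 11.01 to 11.54 FPKM, and Sema4g from 7.47 to 8.51 and from 6.97 to 7.65 FPKM. Plxnb2 ranged from 8.10 to 8.91 FPKM in the controls and, more widely, from 7.41 to 9.22 FPKM in the CKO mice.

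Whether the CKO effects differed between the lines was tested directly, as an interaction over all 12 libraries. The effect on Sema4d was lower in the Dnmt1 line, with a difference of −0.45 (Dnmt1 minus Dnmt3a line, log2 scale, standard error 0.068, 95% interval −0.60 to −0.30, limma adjusted p = 0.0060), and so was that on Plxnb3, with a difference of −0.79 (standard error 0.134, 95% interval −1.08 to −0.49, limma adjusted p = 0.013). Without the library labelled Dnmt3a control replicate 2 these were −0.44 and −0.81 (limma adjusted p of 0.019 and 0.033). Without the 3 libraries low in Ddx3y, Sema4d stayed past the threshold at −0.44 (limma adjusted p = 0.060) and Plxnb3 did not, at −0.67 (standard error 0.170, limma adjusted p = 0.14). Thus 2 of 9 members passed, both lower in the Dnmt1 line, where 2.13% of all rows passed and 1.83% were lower. At an unadjusted p under 0.05 the count was 4 of 9, against 10.6% of all rows, the others being Sema4b at −0.32 (limma adjusted p = 0.31) and Plxnb1 at −0.18 (limma adjusted p = 0.44). For Sema4c, Sema4f and Sema4g the effects in the lines lay within 0.03 of each other on the log2 scale, with 95% intervals of the difference as wide as −0.30 to 0.24 for Sema4c.

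The controls of the lines, which differ in the floxed gene, had no member past the threshold (0.00708% of all rows, 1 row), and 3 members with an unadjusted limma p under 0.05, as 7.74% of all rows had. The difference of Dnmt1 minus Dnmt3a controls was −0.14 on the log2 scale for Sema4d (95% interval −0.27 to −0.005, limma adjusted p = 0.64) and −0.19 for Plxnb3 (95% interval −0.37 to −0.01, limma adjusted p = 0.64). Without the libraries low in Ddx3y that of Plxnb3 was −0.27 (limma adjusted p = 0.43). For Sema4g it was 0.16 (95% interval 0.01 to 0.31, limma adjusted p = 0.64). The values of Sema4g and Plxnb3 were separate between these control groups, as were those of 12.6% of all rows (8.59% higher and 3.98% lower in Dnmt1 controls). The same control mice enter the comparisons of CKO and control above.

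Cell type markers moved in the same comparisons as Sema4d and Plxnb3. Of all rows in the Dnmt1 line, 2.3% passed and were lower. Of 15 oligodendrocyte genes, which encode myelin proteins and factors of mature oligodendrocytes, 15 fell in the Dnmt1 line, with log2 fold changes from −2.45 to −0.81 and a median of −1.79; the largest were those of Opalin (−2.45), Mobp (−2.23), Ermn (−2.15), Mal (−2.09), Mog (−2.03) and Mag (−1.96). Their summed level was 2005 to 2331 FPKM in Dnmt1 controls, 596 to 694 FPKM in Dnmt1 CKO mice, 2545 to 3035 FPKM in Dnmt3a controls and 2779 to 3165 FPKM in Dnmt3a CKO mice, and no marker of the list was at 0 in any library. The smallest of the 15 was that of Sox10, a transcription factor of the whole lineage, at −0.81, beside −0.78 for Plxnb3 and −0.47 for Sema4d. Of 8 genes of oligodendrocyte progenitors and newly formed oligodendrocytes 5 fell, namely Bcas1 (−0.76), Enpp6 (−0.73), Neu4 (−0.65), Gpr17 (−0.56) and Pdgfra (−0.30), and the median was −0.43. The other 3 did not pass. Mean levels in Dnmt1 controls and Dnmt1 CKO mice were 12.9 and 11.1 FPKM for Lhfpl3, 3 and 2.995 FPKM for Cspg4, and 4.90 and 5.12 FPKM for Vcan. The sum over the 8, which includes the 5 that fell, was 111 to 122 FPKM in Dnmt1 controls and 78.4 to 82.6 FPKM in Dnmt1 CKO mice. In the Dnmt3a line no gene of either list passed (limma). An unadjusted limma p under 0.05 was found for 0 of 15 and 2 of 8, beside 7.35% of all rows. Between the control groups the oligodendrocyte list was lower in Dnmt1 controls for 15 of 15 genes, with a median of −0.33. None was past the threshold, and 12 had an unadjusted limma p under 0.05, beside 7.74% of all rows. The part of these shifts in the levels of Sema4d and Plxnb3 was not tested.

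**Figure D4:**
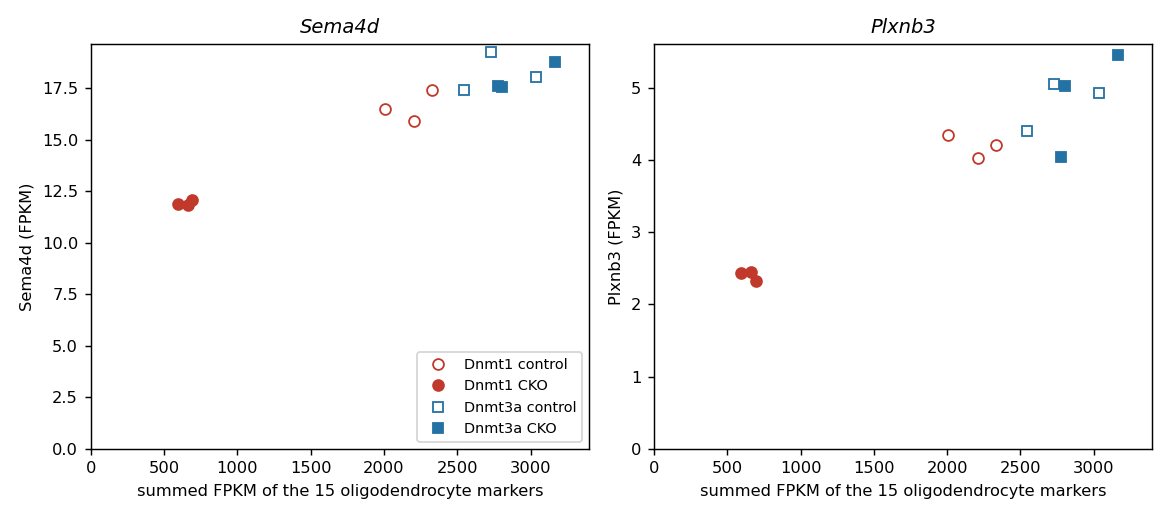
FPKM of Sema4d (left) and Plxnb3 (right) on the y axes against the summed FPKM of 15 oligodendrocyte markers on the x axis, 1 point for each of the 12 mice. The 3 Dnmt1 CKO mice stand apart at sums of 596 to 694 FPKM with the lowest values of both genes.

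Markers of other cells gave fewer calls. Of all rows in the Dnmt1 line, 3.15% passed, 15% had an unadjusted limma p under 0.05 and 20.8% had separate groups. Of 10 microglial genes 3 rose in the Dnmt1 line, the complement genes C1qb (0.42), C1qa (0.34) and C1qc (0.27). An unadjusted limma p under 0.05 was found for 3 of the 10. Their median was 0.07, and 3 had negative log2 fold changes. The summed level, which includes the 3 complement genes, was 164 to 171 FPKM in controls and 179 to 192 FPKM in CKO mice. Of 8 endothelial and mural genes the pericyte gene Rgs5 fell (−0.36). All 8 had negative log2 fold changes there, with a median of −0.18, 5 with separate groups and 4 at an unadjusted limma p under 0.05, and their sum was 90.7 to 98.8 FPKM in controls and 74.7 to 83.0 FPKM in CKO mice. Of 10 astrocyte genes Gfap rose (0.45), but 6 had negative log2 fold changes and the median was −0.04. An unadjusted limma p under 0.05 was found for 4 of the 10 astrocyte genes. Of 10 neuronal genes none passed and 0 had an unadjusted limma p under 0.05. In the Dnmt3a line no gene of these lists passed. There 0 microglial, 3 astrocyte, 0 endothelial and 1 neuronal gene had an unadjusted limma p under 0.05, beside 7.35% of all rows. In the interaction only the astrocyte gene Slc1a2 passed, at −0.21.

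Among the wider pathway in the Dnmt1 line, where 3.15% of all rows passed, 3 genes did. Of 14 semaphorins of other classes 1 fell (7.14%), and 4 had an unadjusted limma p under 0.05, beside 15% of all rows. The one that passed was Sema6a, a transmembrane ligand of plexin-A receptors. Sema6a was at 11.3, 10.1 and 9.45 FPKM in Dnmt1 controls and at 5.68, 6.67 and 6.26 FPKM in Dnmt1 CKO mice. The log2 fold change was −0.72 (standard error 0.088, limma adjusted p = 0.019), close in size to that of Plxnb3. The effect on Sema6a differed from that in the Dnmt3a line by −0.55 (limma adjusted p = 0.055). None rose, and the median over the 14 was −0.08. Of 8 plexins of the A, C and D classes and neuropilins none passed (0 at an unadjusted limma p under 0.05), at a median of −0.02, the same as over all rows. Sema5a, the ligand of Plxnb3 from another class, had a log2 fold change of −0.12 (limma adjusted p = 0.36).

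Downstream of the receptors, 22 of 23 genes of plexin-B signalling were tested (Arhgap35 under its older symbol Grlf1; Mst1r was below the filter). Of these 2 fell in the Dnmt1 line (9.09%) and none rose, with a median of −0.06. An unadjusted limma p under 0.05 was found for 5, beside 15% of all rows. Rap1a, a small GTPase of the kind that plexins inactivate, was at 33.1, 33.8 and 31.3 FPKM in Dnmt1 controls and at 22.5, 22.5 and 23.8 FPKM in Dnmt1 CKO mice. Its log2 fold change was −0.51 (standard error 0.040, limma adjusted p = 0.0043), near that of Sema4d. It shares 8.27% of its 50-base words with other genes, and reads from such copies may enter its value. Rras2, a Ras family GTPase, was at 13.0, 13.7 and 12.4 FPKM in controls and at 10.1, 10.6 and 9.61 FPKM in CKO cortex, for a log2 fold change of −0.37 (standard error 0.055, limma adjusted p = 0.035). The effect differed between the lines for Rap1a, by −0.55 (limma adjusted p = 0.0017), and the difference for Rras2 did not pass. The exchange factors Arhgef11 and Arhgef12 had log2 fold changes of −0.06 and −0.04, Rhoa −0.12, Rock1 −0.11 and Rock2 −0.09, and the receptor tyrosine kinase Met, which associates with plexin-B1, −0.10, with none past the threshold. Rnd2 did not pass either, but its groups were separate. It was at 90.2, 83.7 and 76.8 FPKM in Dnmt1 controls and at 59.1, 70.25 and 65.7 FPKM in Dnmt1 CKO mice. Of the 22 genes, 6 had separate groups, beside 20.8% of all rows. Of 8 partners and sheddases of class 4 semaphorins 7 were tested and none passed (0 at an unadjusted limma p under 0.05), with a median of −0.08: Adam10 and Adam17, proteases that cut membrane proteins, were at −0.04 and −0.12, and Cd72 at −0.11. In the Dnmt3a line no gene of the 4 pathway lists passed (limma). In the order above, 1, 0, 2 and 1 genes had an unadjusted limma p under 0.05, beside 7.35% of all rows.

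**Figure D5:**
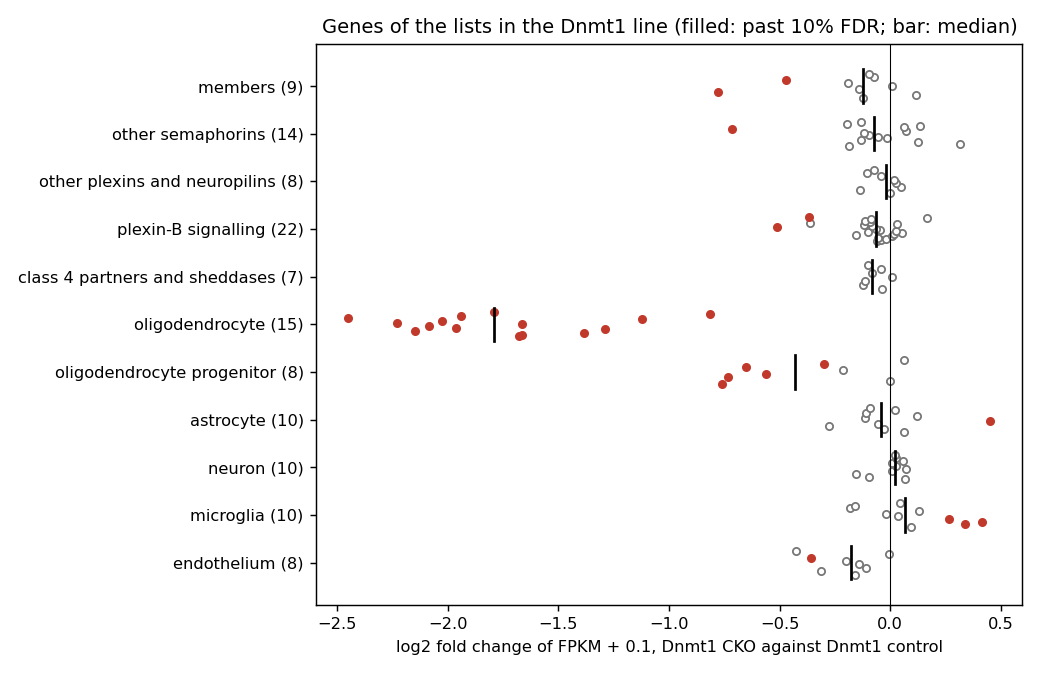
Log2 fold change of FPKM + 0.1 in Dnmt1 CKO against Dnmt1 control mice (x axis) for the genes tested of each list (1 point a gene, number of genes in parentheses); filled points are past 10% FDR and the bar is the median of the list. The medians are −0.12 for the 9 family members, −0.06 for plexin-B signalling and −1.79 for the oligodendrocyte genes.

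The genes whose levels most resembled those of each member over the 12 libraries were listed by Pearson r of log2(FPKM + 0.1), as a description. The libraries share group and depth, so r is also given after removal of the group means. These genes were picked as the highest among the 14115 rows tested, and both values of r come from the same libraries, so neither is a test. For Sema4d they were Elovl7 (0.992, within groups 0.833), Nfasc (0.992, within groups 0.741) and Tspan15 (0.989, within groups 0.697). For Plxnb3 they were Phldb1 (0.984, within groups 0.815), Nfasc (0.980, within groups 0.642) and Mob3b (0.977, within groups 0.661), so that Nfasc, which encodes the node and paranode protein neurofascin, stood in both lists. Between Sema4d and Plxnb3 themselves r within groups was 0.56, no higher than that of Sema4d with Plxnb2 (0.67), Plxnb1 (0.62) or Sema4b (0.57). The other members had other genes beside them. Plxnb2 was most like Cd68 (0.934, within groups 0.929), which encodes a lysosomal protein of microglia and macrophages. Close behind were Nfatc2 (0.923, within groups 0.931) and Vps11 (0.918, within groups 0.922). Plxnb1 was most like Fat1 (0.918, within groups 0.850), Sema4g most like Nav1 (0.953, within groups 0.803) and Sema4c most like Rhot1 (0.929, within groups 0.881). Sema4a was most like Adamtsl5 (0.918, within groups 0.850), Sema4f most like Sfrp4 (0.921, within groups 0.953) and Sema4b most like Gpr116 (0.871, within groups 0.726), the lowest of the leading values.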

How the data were processed

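PolyA RNA from the cortices of 12 mice was sequenced by the authors after library preparation with the TruSeq RNA kit, which does not mark strand, from about 250 ng of total RNA. TopHat alignment to mm10 and Cufflinks quantification were run by the authors, who deposited FPKM values by gene symbol and mouse. Tool versions and the annotation are not given in the sources used here. The values are not read counts, the read number behind a value is unknown, and no counting error was computed. The submitters' notes name Cufflinks and mm10. Of 23850 rows, 302 exact duplicates were removed. Samples were grouped by their titles, and no column was left without a sample.

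The 14115 rows whose mean over all 12 libraries reached 0.5 FPKM were tested on log2(FPKM + 0.1) with limma 3.58.1 in R 4.3.3 (eBayes with a mean-variance trend, Benjamini-Hochberg over all rows, 10% FDR), each line on its own 6 libraries and the interaction on all 12. The procedure was tested on simulated data. Mice are biological replicates. The members, lists, tests and alternatives were chosen with earlier results of these data known. Named were the members, the targeted genes, and the genes of the lists past the threshold (at most 6 a list by size). Of the 3 rows most like each member, all were named for Sema4d, Plxnb3 and Plxnb2, and only the first for the others. Other genes of the lists were named after their values were seen. Alternatives were pseudocounts of 0.01 and 1, minimum means of 0.1 and 1 FPKM or none, eBayes without trend or robust, median ratio rescaling, quantile normalization, rows of a symbol summed, a replicate block, Xist as a covariate, 1 model of all 12 libraries, 5% FDR and each library left out. Leaving out libraries with Ddx3y under 1 FPKM was added after seeing the data. Positions are from GENCODE M21 (GRCm38, also called mm10) and promoter windows from RefSeq. Sequences and plots were handled in Python 3.11.15 (numpy 2.4.6; pandas 2.3.3; matplotlib 3.10.9).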

Additional observations from a re-analysis of the deposited data

Results flagged for a closer look

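The effect of the knockout on 2 members differed between the lines in the interaction test over all 12 libraries (limma). For Sema4d the difference was −0.45 on the log2 scale (adjusted p = 0.0060); all 3 Dnmt1 CKO mice lay below their controls, and the Dnmt3a groups overlapped. For Plxnb3 it was −0.79 (adjusted p = 0.013), and −0.67 (adjusted p = 0.14) without the 3 libraries low in Ddx3y.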

How the results depend on the processing

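With 3 mice a group and no read numbers, the counting error of a level could not be given. The calls of Sema4d and Plxnb3 in the Dnmt1 line held under all 21 alternatives run for that comparison, at −0.50 to −0.44 (limma adjusted p of 0.00017 to 0.069) and −0.81 to −0.61 (0.00042 to 0.057), and no other member was called in any comparison. Of the 26 alternatives of the interaction, Sema4d held under all at −0.49 to −0.41 (limma adjusted p of 0.0037 to 0.060). That of Plxnb3 held at −0.91 to −0.62, except without the libraries low in Ddx3y (−0.67, limma adjusted p = 0.14), which left 1 member called; fewer libraries enter that fit, and the cause was not tested.

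The labels do not say whether the replicate numbers pair the mice. The deviations of same-numbered CKO and control libraries correlated at −0.08 to 0.04, which cannot settle it. Those of same-numbered controls of both lines correlated at −0.03 to 0.20. With the replicate block the count of rows called in the Dnmt1 line was 162 in place of 444, and the members called stayed 2, with adjusted p of 0.069 for Sema4d and 0.057 for Plxnb3 (limma). That count was 263 at 5% FDR and 199 to 341 with 1 library left out. In the Dnmt3a line it was 1 to 17 and between the controls 0 to 9.

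Of the values of single members under alternatives, 759 kept their direction and side of the threshold, 1 lost its call and 41 changed sign, none of them called. With median ratio rescaling these were Plxnb3 in the Dnmt3a line (−0.0033), Sema4c and Sema4f in the interaction (0.00083 and 0.021) and Sema4a and Sema4f between controls (−0.018 and −0.0084). With quantile normalization they were Plxnb2 in the Dnmt3a line (5.7e-05), Sema4f in the interaction (0.024) and Sema4a and Sema4f between controls (−0.011 and −0.0015). Without the libraries low in Ddx3y they were Plxnb2 and Plxnb3 in the Dnmt3a line (0.071 and −0.086), Sema4f in the interaction (0.026) and Sema4a between controls (−0.033). With 1 library left out, Sema4b in the Dnmt1 line lay between −0.038 and 0.054. In the Dnmt3a line Sema4a lay between −0.041 and 0.033, Sema4d between −0.054 and 0.019, Plxnb1 between −0.0018 and 0.084, Plxnb2 between −0.072 and 0.084 and Plxnb3 between −0.084 and 0.13. In the interaction Sema4c lay between −0.12 and 0.032, Sema4f between −0.074 and 0.027 and Sema4g between −0.047 and 0.053. Between controls Sema4a lay between −0.029 and 0.046, Sema4f between −0.020 and 0.081 and Plxnb2 between −0.064 and 0.0032.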
